A study of Mus musculus with 28 samples.

Results

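The 33 genes described here are those of the cells that lie beneath and around the lung epithelium. They comprise 25 genes of mesenchymal cells (fibroblasts, smooth muscle and pericytes) and 8 genes of the mesothelium. They were chosen by name as markers of those cells from 23478 gene rows per count table, with earlier results of these data known. They were followed in RNA from mouse lung cells that had been sorted for the epithelial surface protein EPCAM (CD326) after magnetic beads had removed cells bearing the blood markers CD45, CD16/32 and Ter119, CD90.2 and CD271, or the endothelial marker CD31. The labels call the product AT2 cells, the surfactant-making cells of the alveolus. Recombination was induced on postnatal day 3 and lungs were taken on postnatal day 14. Yap active libraries (6) carried Stk3flox/flox/Stk4flox/flox with SftpcCreert2, and Yap active controls (4) carried the same floxed Stk3 and Stk4 with no Cre label. Yap deleted libraries (5) carried Yapflox/flox with SftpcCreert2, and Yap deleted controls (4) carried Yapflox/flox. The Sftpc promoter drives Cre in AT2 cells, so no recombination is designed to occur in fibroblasts or mesothelium. Both control groups carry the floxed alleles, and neither is labelled as carrying the Cre driver. The labels do not tie libraries to single animals, so p-values measure the spread between these samples, which may be technical in part. A further 9 ATAC-seq libraries of the same sort, which map open chromatin, gave lists of regions that opened or closed in each line.

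Fibroblasts of the alveolar wall lay down the collagen and elastin on which septa form, and this is at its height in the second postnatal week in mice. Platelet-derived growth factor receptor alpha (Pdgfra) marks alveolar fibroblasts and the contractile myofibroblasts that make elastin, while receptor beta (Pdgfrb) and the proteoglycan NG2 (Cspg4) mark pericytes along capillaries. The mesothelium is a thin epithelium that covers the lung surface, and its cells share keratins and adhesion proteins with other epithelia. A sort by beads enriches epithelial cells without removing all others, and RNA of a rarer cell type then appears in the sorted sample in proportion to its cells and to the RNA each holds. In such bulk samples fewer cells of a type and less RNA per cell cannot be told apart.

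Depth per RNA library ran from 35.0 to 43.5 M counts for the Yap active line and from 31.9 to 42.9 M counts for the other. Levels are in CPM, counts per M (mega) of TMM-scaled library size over the genes tested, and are not divided by gene length. AT2 RNA was present throughout, with Sftpc, which encodes surfactant protein C, at 2064 to 83336 CPM and Epcam, the gene of the sort's antigen, at 94.6 CPM or more. Esr1 reads, which the CreERT2 receptor part can give, went against the label in 3 libraries, namely active 1 (1.97 CPM), active control 2 (160.0 CPM) and deleted control 2 (87.1 CPM), while other Cre libraries held 211 to 531 CPM and other controls 0.952 to 3.91 CPM. Reads of Stk3, Stk4 and Yap1 passed the test in no comparison. The main axis of variation over genes in none of the lists used here set active 1 and active controls 1 to 3 apart from active 2 to 6 and active control 4. In the Yap deleted table the same kind of axis set deleted controls 1 and 2 apart from the other 7 libraries. Both library splits run partly along the groups compared, and the lists are given with and without a term for the first and with and without deleted controls 1 and 2.

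All 33 genes had reads in all 19 libraries, the fewest being 34 counts for Wnt2 in active 4. The 25 mesenchymal genes took 0.404% of counts in active 4 and 3.63% in deleted control 2, the lowest and highest of the 19. The 8 mesothelial genes took 0.0124% in active 6 and 0.125% in active control 2. Among mesenchymal genes the ratio of the highest to the lowest of the 19 libraries ran from 4.31 for Cspg4 to 72.3 for Wnt2, and among mesothelial genes from 6.60 for Msln to 19.5 for Wt1. These ratios cross the 2 lines, whose libraries were scaled apart, and for Wnt2 they set deleted 5 against active 4. Thy1, which encodes the depleted antigen CD90 that many fibroblasts carry, lay at 0.231 to 8.57 CPM in 17 libraries, with 17.6 CPM in deleted control 1 and 44.8 CPM in deleted control 2. Ngfr, the gene of the depleted antigen CD271, stayed at or under 1.63 CPM.

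Summed over the 25 mesenchymal genes, Yap active libraries held 4438 CPM at the lowest, 9971 at the median and 28734 at the highest, which was active 1. Yap active controls 1 to 4 held 23758, 13837, 21809.5 and 10373 CPM. The 2 groups overlapped over nearly the whole range of the controls, and 3 of the 6 Yap active libraries lay below every control. In the other line Yap deleted libraries 1 to 5 held 12026, 28655, 27994, 6957 and 25162 CPM, and Yap deleted controls 1 to 4 held 28521, 33226, 13067 and 8622 CPM. Here both groups split into high and low libraries, with deleted 2, 3 and 5 and controls 1 and 2 at 25162 CPM or above and the other 4 at 13067 CPM or below. Means were 12711 ± 9044 CPM in Yap active libraries (SD, n = 6), 17444 ± 6375 in their controls (n = 4), 20159 ± 9988 in Yap deleted libraries (n = 5) and 20859 ± 11862 in their controls (n = 4). These sums lean on a single gene, since Eln alone supplied 19.7% to 57.5% of them. Its share was 55.8% in active 1 and 33.7% in active control 1.

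The mesothelial sum behaved differently. Yap active libraries held 136 CPM at the lowest, 330 at the median and 942 at the highest, again active 1, while Yap active controls 1 to 4 held 775, 1199, 1097 and 477 CPM. Apart from active 1, every Yap active library lay below the lowest control. Yap deleted libraries 1 to 5 held 220.3, 581, 308, 428 and 325 CPM, and Yap deleted controls 1 to 4 held 280.3, 681, 326 and 337 CPM, so these groups covered the same range. In the Yap active table active 2, 4 and 6 were the lowest 3 of 10 libraries in both sums. Mesenchymal over mesothelial sum ran there from 11.5 in active control 2, the highest in mesothelial sum, to 46.3 in active 6. In the Yap deleted table this ratio ran from 16.3 in deleted 4 to 102 in deleted control 1. It was 48.8 in deleted control 2 and 91.0 in deleted 3.

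**Figure D1:**
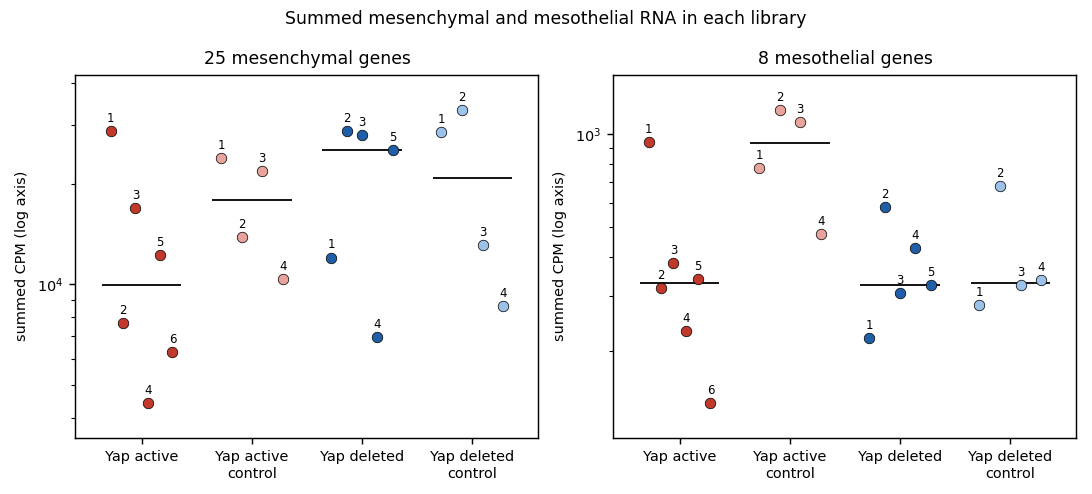
Summed CPM (log axis) of the 25 mesenchymal genes (left) and the 8 mesothelial genes (right) in each RNA library, with replicate numbers beside the points and a line at each group's median. Yap active library 1 stands at 28734 and 942 CPM, above the other Yap active libraries, and Yap deleted controls 1 and 2 hold 28521 and 33226 CPM of the mesenchymal genes, against 13067 and 8622 CPM in controls 3 and 4. Eln alone supplies 19.7% to 57.5% of the mesenchymal sum, and 55.8% in Yap active library 1.

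Gene by gene, the libraries of the Yap active table differed as whole blocks. Active 4 was the lowest of 10 libraries for 22 of the 25 mesenchymal genes, and active 6 the lowest for 8 of the 8 mesothelial genes. The highest mesenchymal level fell in active control 1 for 11 genes, in active control 3 for 6 and in active 1 for 5, while the highest mesothelial level fell in active control 2 for 4 genes and in active control 3 for 4. In the Yap deleted table deleted control 2 was highest for 10 mesenchymal and 6 mesothelial genes, and deleted 5 was highest for 9 mesenchymal genes. Deleted 4 was lowest for 12 mesenchymal genes while lying above the table's mean for the mesothelial genes (median 0.36 on the log2 scale).

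**Figure D2:**
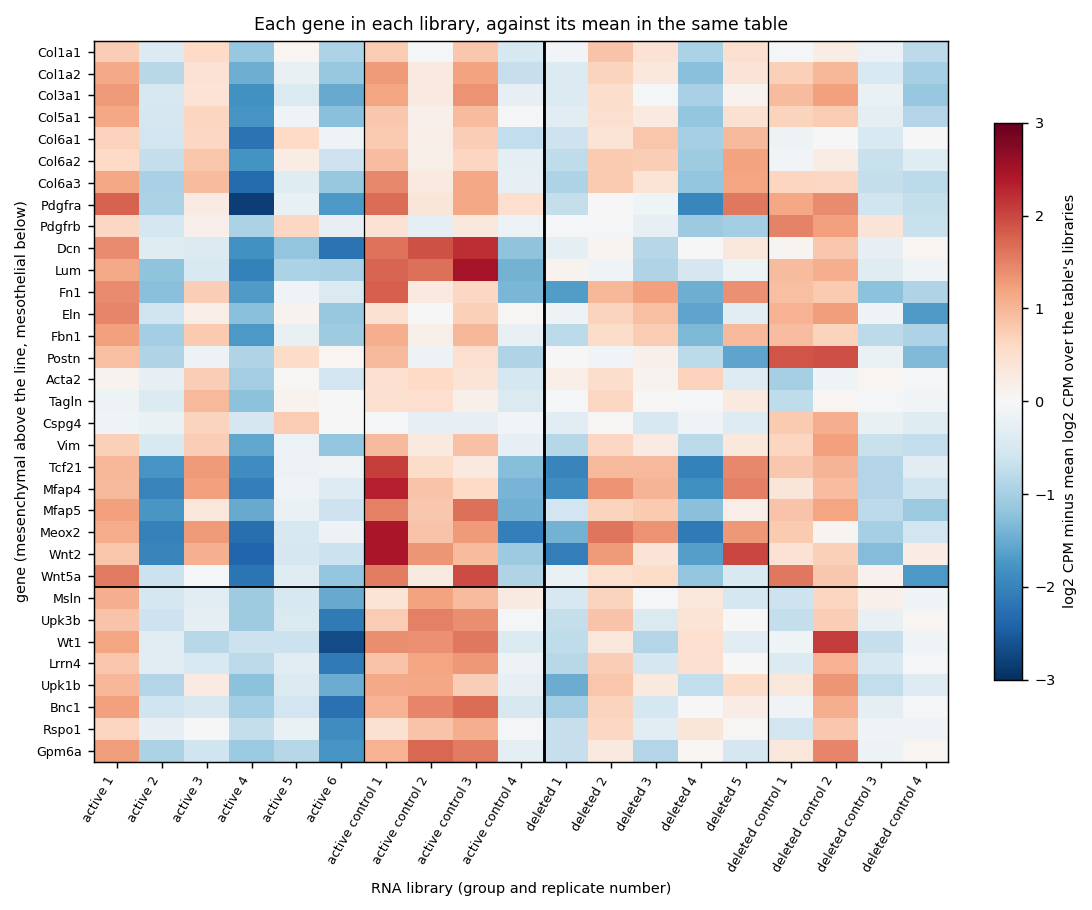
Log2 CPM of each of the 33 genes (rows) in each of 19 RNA libraries (columns), minus that gene's mean log2 CPM over the libraries of the same count table, with red above and blue below the mean. Active 4 is blue for mesenchymal genes (median −1.78), active 6 for mesothelial genes (median −1.98), and deleted 1 and 4 are blue for Tcf21, Mfap4, Meox2 and Wnt2 where deleted 2, 3 and 5 are red.

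With Stk3 and Stk4 targeted, fitted changes lay mostly below 0 in both lists and no gene passed the test. In edgeR's quasi-likelihood test, 0 of 33 genes had an adjusted p under 0.05, where all 15685 genes tested gave 0 calls (0%). At an unadjusted p under 0.05 stood 2 of the 25 mesenchymal genes and 6 of the 8 mesothelial genes, all lower in Yap active libraries, against 5.98% of all genes in that direction. None stood there with a higher level in Yap active libraries, against 6.65% of all genes. The lists were chosen with earlier results known and their genes vary together, so these counts are not a test of a list. DESeq2 called 0 of the 33 (18 genes in all, 0.115%), and limma-voom with sample weights called 13 mesenchymal and 8 mesothelial genes where it called 56.6% of all genes. Fitted changes were negative for 24 of 25 mesenchymal genes with a median log2 fold change of −0.63, and for 8 of 8 mesothelial genes with a median of −1.27, beside −0.01 over all genes tested. For none of the 33 genes did the 2 groups separate without overlap, as 0.465% of all genes did upward and 0.478% downward.

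Among the collagens, Col3a1, the fibrillar collagen of distensible tissue, lay at 351, 903 and 3004 CPM (lowest, median and highest) in Yap active libraries, against 2831, 1493, 3144 and 1043 CPM in controls. Active 1 lay between controls 1 and 3, and active 2, 4, 5 and 6 lay below every control. Its log2 fold change was −0.82 ± 0.57 SE (edgeR's quasi-likelihood test, adjusted p = 0.423). The other fibrillar genes Col1a1, Col1a2 (the chains of type I collagen) and Col5a1 (which nucleates fibrils) had fold changes of −0.38, −0.76 and −0.50 on the log2 scale. Col6a1, a chain of the microfibrillar type VI collagen that borders basement membranes, ranged over 95.7, 543 and 719.9 CPM in Yap active libraries and held 774, 509, 749.5 and 269 CPM in controls. Its groups overlapped widely (−0.26 ± 0.49 SE), and Col6a2 and Col6a3 gave −0.43 and −0.79.

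Elastic fibre genes differed in where they peaked. Eln, which encodes elastin itself, lay at 2439.7, 5054 and 16039 CPM in Yap active libraries, against 8016, 5866, 9588 and 5963 CPM in controls. The highest value, active 1, stood above all other libraries of that table and the next Yap active library held 6723 CPM, so the mean difference was small (−0.22 ± 0.50 SE). Fbn1, the fibrillin of microfibrils, also peaked in active 1 and gave −0.57. The microfibril-associated genes Mfap4 and Mfap5 peaked in controls 1 and 3 and gave −1.02 and −1.07. Fn1 (fibronectin) gave −0.55, and Postn, the periostin of remodelling matrix, gave −0.18. None of these had an adjusted p under 0.377 in edgeR's quasi-likelihood test.

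Small proteoglycans of the collagen fibril showed the smallest p among mesenchymal genes. Lum (lumican) lay at 1.22, 2.56 and 10.9 CPM in Yap active libraries, against 16.8, 15.6, 28.2 and 1.87 CPM in controls. Controls 1 to 3 stood above every Yap active library, and control 4 stood below all but active 4. The log2 fold change was −2.02 ± 0.69 SE, with an unadjusted p of 0.0145 and an adjusted p of 0.366 in edgeR's quasi-likelihood test. Dcn (decorin) split the libraries likewise, with 7.97, 22.1 and 99.1 CPM in Yap active libraries against 113, 139.5, 171 and 16.0 CPM in controls (−1.79 ± 0.74 SE, adjusted p = 0.366 in the same test). These levels of Lum and Dcn thus followed the library split described above, since active 1 was high with controls 1 to 3 and control 4 was low with active 2 to 6.

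Receptor, contractile and cytoskeletal genes gave fold changes from −0.92 to 0.32 on the log2 scale. Pdgfra held 16.0, 78.6 and 389 CPM in Yap active libraries and 361, 146, 254 and 159.9 CPM in controls, a change of −0.92 ± 0.72 SE. Active 1 exceeded every control and the other 5 lay below all of them. Pdgfrb held 56.6, 106 and 168 CPM in Yap active libraries and 147, 90.0, 137 and 95.9 CPM in controls, with a change of −0.05 ± 0.31 SE and full overlap. Acta2, the smooth muscle actin of myofibroblasts and vessel walls, held 120.2, 233 and 414 CPM against 351, 378, 329 and 172 CPM in controls (−0.36 ± 0.33 SE). Tagln (transgelin, another smooth muscle protein) gave −0.20, and Cspg4, the one mesenchymal gene that was higher, gave 0.32 ± 0.24 SE. Vim (vimentin), the intermediate filament of mesenchymal cells, held 78.3, 186 and 384 CPM in Yap active libraries and 455, 281, 426 and 195 CPM in controls (−0.63 ± 0.45 SE).

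Transcription factor and ligand genes of the lung mesenchyme spanned wide ranges in both groups. Tcf21, a factor of alveolar and lipid-laden fibroblasts, held 11.8, 39.3 and 105 CPM in Yap active libraries and 179.9, 62.6, 52.8 and 17.7 CPM in controls (−0.68 ± 0.71 SE). Meox2, a homeobox gene of mesenchyme, gave −1.17 ± 0.82. Wnt2, a ligand of lung mesenchyme that acts on the epithelium, held 0.990, 3.44 and 10.7 CPM in Yap active libraries against 27.8, 12.7, 9.81 and 2.40 CPM in controls (−1.45 ± 0.74). Wnt5a, a ligand of myofibroblasts, held 15.5, 50.3 and 208 CPM against 204, 85.0, 275 and 37.9 CPM (−1.09 ± 0.69). For each of these 4 genes at least 2 Yap active libraries lay within the range of the controls, and adjusted p ran from 0.366 to 0.569 in edgeR's quasi-likelihood test.

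Mesothelial genes were the more uniform group in this line. Their log2 fold changes ran only from −1.49 to −0.87, and unadjusted p ran from 0.0169 to 0.0634 in edgeR's quasi-likelihood test. All 8 had an adjusted p of 0.366 in that test. This was the lowest among all 15685 genes tested and was shared with genes of other lists, so the tie says nothing of uniformity. Msln (mesothelin), a surface protein of the mesothelium, lay at 59.2, 119.5 and 361 CPM in Yap active libraries, against 223, 391, 326 and 202 CPM in controls (−0.97 ± 0.44 SE, unadjusted p = 0.0508). Active 1 fell among the controls, and active 2 to 6 lay below all of them. Upk3b, a uroplakin found on mesothelium, lay at 31.1, 94.4 and 244 CPM against 227, 381, 355 and 132 CPM in controls, which gave the smallest p of the 8 (−1.36 ± 0.48 SE, unadjusted p = 0.0169). Gpm6a, a membrane glycoprotein gene that marks mesothelium in mouse lung, lay at 14.2, 25.9 and 116 CPM against 99.8, 160.3, 144 and 39.8 CPM (−1.49 ± 0.57 SE). The transcription factor genes Wt1 (−1.39 ± 0.59 SE) and Bnc1 (−1.36 ± 0.58 SE), the leucine-rich repeat gene Lrrn4 (−1.18 ± 0.45 SE), the uroplakin gene Upk1b (−0.98 ± 0.48 SE) and Rspo1, which encodes an enhancer of Wnt signalling (−0.87 ± 0.38 SE), had the same sign.

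**Figure D3:**
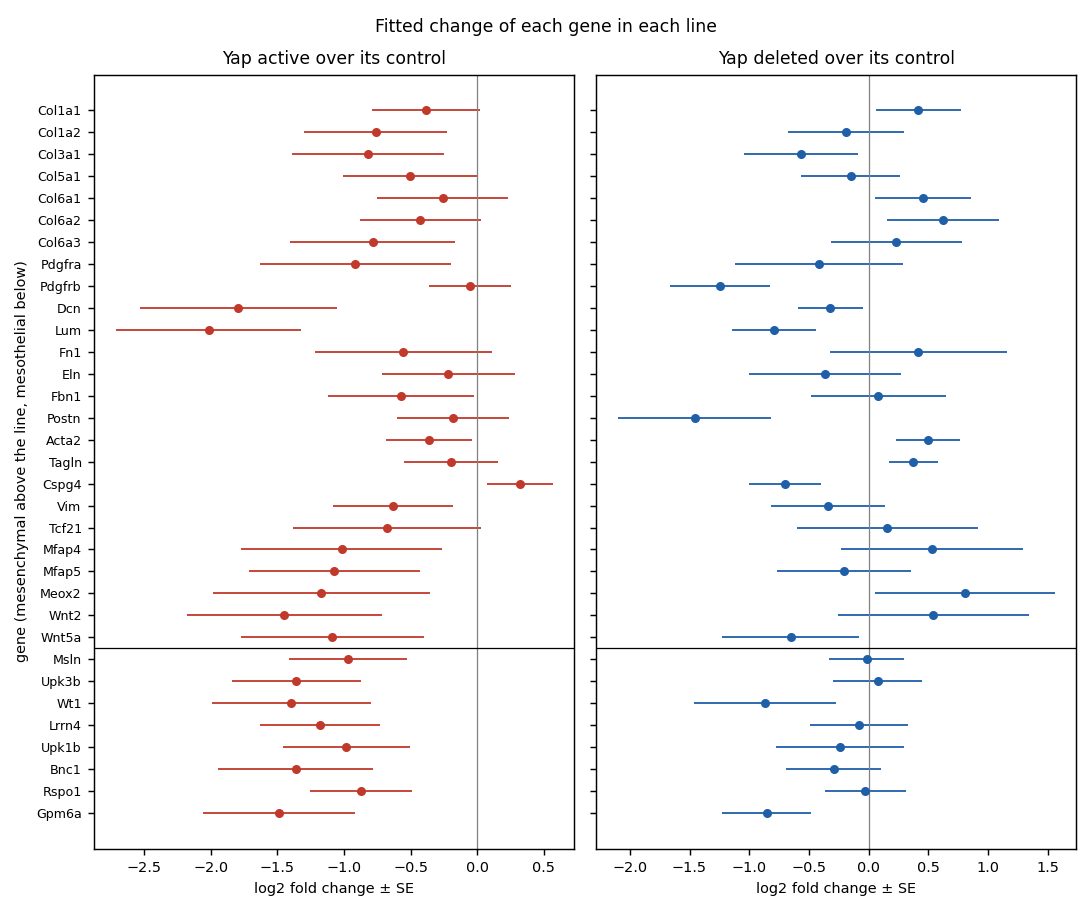
Fitted log2 fold change (points) with its standard error (bars) for each of 33 genes, in Yap active libraries over their controls (left, n = 6 and 4) and in Yap deleted libraries over their controls (right, n = 5 and 4). On the left 24 of 25 mesenchymal and 8 of 8 mesothelial genes lie below 0, on the right 13 of 25 and 7 of 8, and none passed the test.

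Within each set of libraries the mesenchymal median lay above 0 and the mesothelial median below 0. The sets were drawn from the main axis of these same libraries. Between active 1 and controls 1 to 3 the median difference in log2(CPM + 0.5) was 0.11 for mesenchymal genes, with 16 of 25 higher in active 1, and −0.17 for mesothelial genes, with 7 of 8 lower. Between active 2 to 6 and control 4 it was 0.11 for mesenchymal genes, again with 16 of 25 higher, and −0.58 for mesothelial genes, with 8 of 8 lower. These are values of 1 library against 3 and of 5 against 1, so they carry no test and cannot show that a difference is absent. Against control 4 single mesenchymal genes ran from −1.57 (Pdgfra) to 1.20 (Meox2). A fit with the library set as a term gave 17 of 25 mesenchymal genes higher (median 0.17) and 8 of 8 mesothelial genes lower (median −0.38), with 0 of 33 called. In that fit 0 of 25 and 0 of 8 stood at an unadjusted p under 0.05 in edgeR's quasi-likelihood test. Of all 15685 genes, 292 stood there higher and 147 lower. Other cell types moved with the set as well. The AT2 list of 10 genes summed to 37925 to 57979 CPM in active 1 and controls 1 to 3, against 81100.0 to 134274 CPM in the other 6 libraries, and 15 endothelial genes summed to 115 to 456 CPM against 42.5 to 153 CPM. Their part in the result was not tested.

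After Yap deletion no mesenchymal or mesothelial gene passed the test either, and the 2 lists had no common direction. In edgeR's quasi-likelihood test 0 of 33 genes were called, where 1 of 15818 genes tested was (0.00632%), DESeq2 called 0 of the 33 while it called 792 genes (5.01%), and limma-voom called 0 genes. Log2 fold changes were positive for 12 and negative for 13 of the 25 mesenchymal genes (median −0.15), and negative for 7 of the 8 mesothelial genes (median −0.16), beside 0.01 over all genes. At an unadjusted p under 0.05 stood 4 mesenchymal genes and 1 mesothelial gene, all lower in Yap deleted libraries, against 9.18% of all genes in that direction, and none was higher, against 6.13%. Non-overlapping groups occurred for 0 of 33 genes, against 2.64% of all genes upward and 1.25% downward.

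The 4 lower mesenchymal genes were high in deleted controls 1 and 2. Pdgfrb lay at 142, 145, 125, 69.2 and 73.2 CPM in Yap deleted libraries 1 to 5 and at 413, 349.8, 195 and 93.4 CPM in controls 1 to 4 (−1.24 ± 0.42 SE, unadjusted p = 0.0156, adjusted p = 0.264 in edgeR's quasi-likelihood test). Postn lay at 93.6, 88.4, 104, 53.0 and 31.3 CPM against 341, 353, 80.9 and 37.1 CPM (−1.46 ± 0.64 SE). Cspg4 lay at 22.1, 28.7, 20.0, 25.9 and 21.4 CPM against 48.0, 59.7, 24.1 and 21.7 CPM (−0.70 ± 0.30 SE). Controls 1 and 2 stood above every Yap deleted library for these 3 genes, control 4 fell within their range, and control 3 lay above it for Pdgfrb alone. Lum followed with 5.64, 4.85, 2.79, 3.68 and 4.65 CPM against 10.1, 11.0, 4.08 and 4.73 CPM (−0.79 ± 0.35 SE). Without controls 1 and 2 the log2 fold changes were −0.41 for Pdgfrb, 0.30 for Postn, 0.01 for Cspg4 and −0.06 for Lum.

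For 17 of the 25 mesenchymal genes deleted 2, 3 and 5 all lay above deleted 1 and 4, and Dcn, Lum, Eln, Postn, Pdgfrb, Acta2, Cspg4 and Wnt5a did not have that order. The genes of this order given here were chosen after their values were seen. Mfap4 lay at 539, 4965, 3960.2, 539.9 and 5516 CPM in Yap deleted libraries, against 2523, 3719, 1053 and 1295 CPM in controls (0.53 ± 0.76 SE). Tcf21 lay at 31.0, 241, 244, 30.1 and 336 CPM against 216, 252, 67.2 and 97.5 CPM (0.16 ± 0.76 SE). Deleted 1 and 4 thus fell below every control for both genes, and deleted 5 exceeded every control. Fn1 lay at 329, 2079, 2445, 382 and 2713 CPM against 1949.9, 1809, 450.5 and 557 CPM (0.42 ± 0.74 SE). Wnt2 lay at 4.20, 42.7, 23.3, 5.60 and 71.6 CPM against 23.9, 29.0, 7.25 and 20.7 CPM (0.54 ± 0.80 SE), and Meox2, with the largest positive fold change of the 33, gave 0.81 ± 0.75 SE. The same 3 libraries held 1138, 1532 and 1686 CPM of Col6a1, against 557 and 434 CPM in deleted 1 and 4 and 776, 851, 624 and 869.7 CPM in controls (0.45 ± 0.40 SE).

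Of the remaining mesenchymal genes given library by library, Col3a1 lay at 1074, 2044, 1363, 719 and 1522 CPM in Yap deleted libraries, against 2748, 3326, 1232 and 644 CPM in controls (−0.56 ± 0.48 SE). Eln lay at 5542, 9790.5, 11434, 2051 and 4962 CPM against 12682, 14628, 5596 and 1891 CPM (−0.36 ± 0.64 SE). Both genes were highest in controls 1 and 2, and their groups overlapped. Pdgfra lay at 110.5, 179.6, 166, 46.7 and 544 CPM against 404, 484, 119.9 and 110.2 CPM (−0.42 ± 0.70 SE). Vim lay at 221, 614, 473, 228 and 497 CPM against 630.0, 934, 253 and 241 CPM (−0.34 ± 0.48 SE), and Wnt5a at 77.9, 125, 131, 39.9 and 65.8 CPM against 269.7, 157, 99.1 and 27.3 CPM (−0.65 ± 0.57 SE). Deleted 5 was the highest library of the line for Pdgfra and among the lowest for Pdgfrb. Acta2 departed from these, with 215, 269, 201, 306 and 143 CPM in Yap deleted libraries and 94.9, 173, 195 and 181 CPM in controls (0.50 ± 0.27 SE), so that control 1 was its lowest library.

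Mesothelial genes overlapped between Yap deleted libraries and their controls. Msln lay at 97.7, 216, 133, 173 and 95.4 CPM in Yap deleted libraries, against 89.2, 214, 151 and 124 CPM in controls (−0.02 ± 0.31 SE). Upk3b lay at 53.1, 158, 64.8, 116 and 87.3 CPM against 53.0, 146, 74.0 and 90.2 CPM (0.08 ± 0.37 SE). Both groups covered a like range, with deleted 2 and control 2 at the top. Gpm6a lay at 20.7, 40.6, 18.1, 34.5 and 23.3 CPM against 42.0, 91.9, 30.1 and 34.7 CPM and had the smallest p of the 8 (−0.86 ± 0.37 SE, unadjusted p = 0.0454). A p that misses the threshold does not show equal levels, and the SE of these 8 fold changes ran from 0.31 to 0.60 on the log2 scale.

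Endothelial RNA marked the same 2 controls. The 15 endothelial genes summed to 123 to 196 CPM in Yap deleted libraries, and to 2766, 2350.5, 183 and 182 CPM in controls 1 to 4. Pecam1, which encodes the depleted antigen CD31, lay at 2.13 to 11.0 CPM in Yap deleted libraries, against 322, 245, 5.52 and 12.9 CPM in controls. The 15 leukocyte genes summed to 59.6 to 196 CPM in Yap deleted libraries and to 397, 1438, 152 and 285 CPM in controls. Deleted 2, 3 and 5 came near controls 1 and 2 in mesenchymal RNA without their endothelial RNA. The ratio of the mesenchymal to the endothelial sum was 97.4, 146, 228, 46.1 and 152 in Yap deleted libraries and 10.3, 14.1, 71.4 and 47.3 in controls. Without controls 1 and 2, 22 of 25 mesenchymal genes were higher in Yap deleted libraries (median 0.68, with Fn1 at 1.62, Meox2 at 1.52 and Mfap4 at 1.36) and 7 of 8 mesothelial genes were higher (median 0.17), with 0 of 33 called by edgeR. The part of endothelial cells and leukocytes in the result was not tested.

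**Figure D4:**
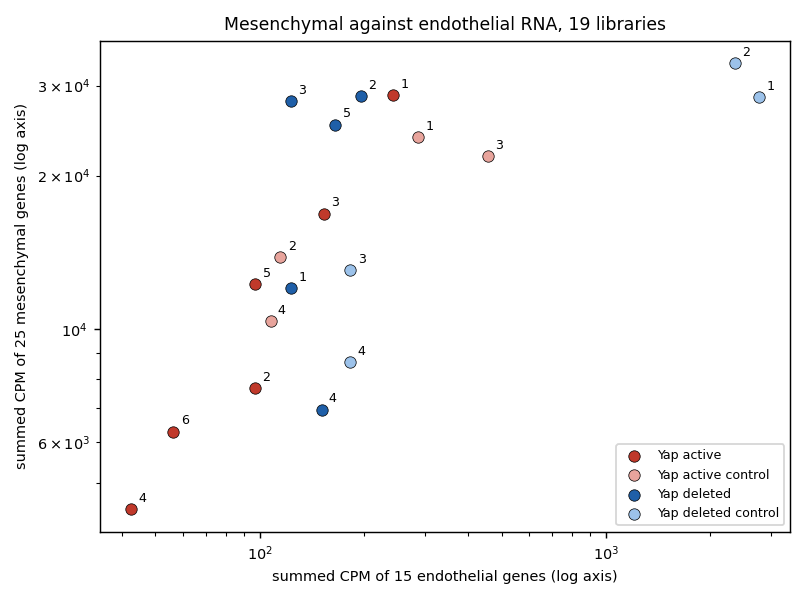
Summed CPM of the 25 mesenchymal genes against summed CPM of 15 endothelial genes (both log axes) in 19 RNA libraries, coloured by group and numbered by replicate. Yap deleted controls 1 and 2 stand apart at 2766 and 2350.5 CPM of endothelial genes, while Yap deleted libraries 2, 3 and 5 reach a like mesenchymal sum at 123 to 196 CPM.

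Single libraries set the sign of the medians in this line. The mesenchymal median was 0.01 without deleted 4, 0.04 without control 1 and 0.23 without control 2, and negative without each of the other libraries. The mesothelial median was 0.01 without deleted 1 and 0.27 without control 2, and negative without each of the other libraries. In the Yap active line leaving out any 1 library kept both medians negative, and the mesenchymal one came nearest to 0 without control 1 (−0.36).

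A ratio of 2 genes within a library does not depend on how that library was scaled. The ratios given here were chosen after the values were seen. Col1a1 and Col1a2 encode the chains of the same collagen. The ratio of Col1a1 to Col1a2 counts was 0.807, 1.44, 1.21, 1.35, 1.29 and 1.24 in Yap active libraries 1 to 6 and 0.764, 0.869, 0.817 and 1.25 in their controls. It was 1.43, 1.32, 1.26, 1.42 and 1.25 in Yap deleted libraries and 0.686, 0.681, 1.41 and 1.34 in their controls. The 6 libraries below 1 were thus active 1, active controls 1 to 3 and deleted controls 1 and 2, the same libraries that the main axis of other genes set apart in each table, and no library lay between 0.869 and 1.21. Mfap4 over Postn, a fibroblast gene over one that is high in myofibroblasts, was 5.76, 56.2, 38.2, 10.2 and 176 in Yap deleted libraries and 7.39, 10.5, 13.0 and 34.9 in their controls. In Yap active libraries this ratio was 8.86, 3.95, 22.1, 3.78, 5.23 and 6.19, and in their controls 21.9, 16.8, 9.06 and 6.01. Deleted 2, 3 and 5 had the 3 highest values of all 19, and otherwise the groups overlapped.

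**Figure D5:**
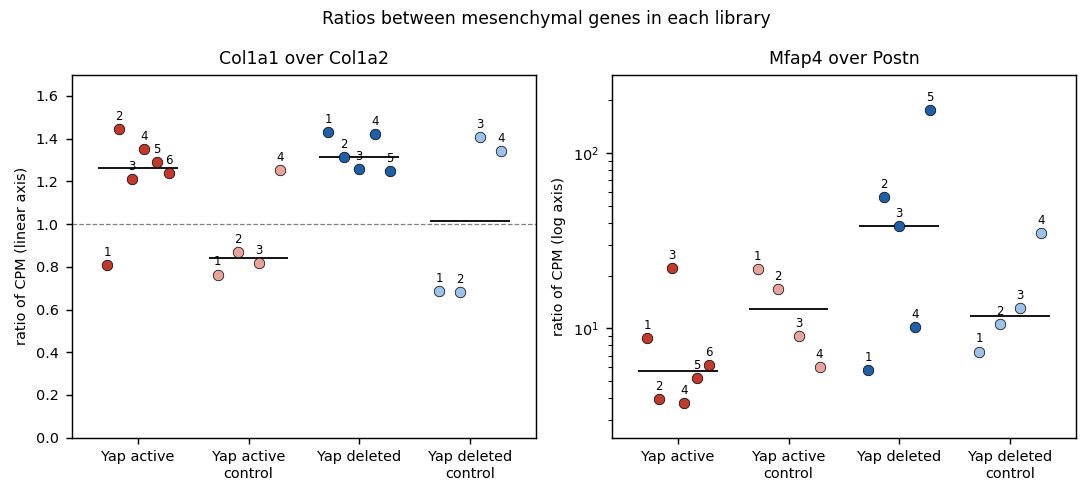
Ratio of Col1a1 to Col1a2 CPM (left, linear axis, dashed line at 1) and of Mfap4 to Postn CPM (right, log axis) in each RNA library, numbered by replicate, with a line at each group's median. On the left 6 libraries lie at 0.681 to 0.869 and 13 at 1.21 to 1.44, and on the right Yap deleted libraries 2, 3 and 5 stand at 56.2, 38.2 and 176.

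The change in one line was also set against that in the other, as the difference of the 2 log2 fold changes (Yap active over its control, minus Yap deleted over its control). Of 16308 genes tested edgeR called 0 (0%), DESeq2 called 17 genes (0.104%) and limma-voom 21 (0.129%), and none of the 33 was among them. The difference was negative for 8 of 8 mesothelial genes (median −0.90) and for 21 of 25 mesenchymal genes (median −0.72), beside 0.02 over all genes. At an unadjusted p under 0.05, where 6.47% of all genes stood, were Upk3b (−1.44 ± 0.67, against 1.91% of all genes downward), and Cspg4 (1.02 ± 0.40) and Pdgfrb (1.19 ± 0.55, against 4.56% upward), each with an adjusted p from 0.732 to 0.763 in edgeR's quasi-likelihood test. Without deleted controls 1 and 2, in which Cspg4 and Pdgfrb were high, these 2 were the only mesenchymal genes of 25 above 0 and the median was −1.56.

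Other genes of the same cells, listed apart from the 33, gave no call in either line, and none of the counts below is a test of its list. Of 35 further fibroblast genes, 33 were lower in Yap active libraries (median −0.87) and 23 were lower in Yap deleted libraries (median −0.15). With library set as a term 14 of 35 were lower in Yap active libraries (median 0.05), and without deleted controls 1 and 2, 7 of 35 were lower in Yap deleted libraries (median 0.62). The smallest p in the first belonged to Fap, a fibroblast surface protease gene listed at no more than 0.843 CPM in any of 19 libraries (−1.94 ± 0.82 SE), and to Hhip, a hedgehog-binding protein gene of myofibroblasts (−1.92 ± 0.82 SE), which gave −0.84 and −0.37 with library set as a term. In the second Foxf1, a factor of lung mesenchyme and endothelium, lay at 27.7 to 46.2 CPM in Yap deleted libraries, against 244, 206, 39.8 and 35.9 CPM in controls (−1.77 ± 0.56 SE, and 0.00 without controls 1 and 2). Of 20 pericyte and smooth muscle genes 15 were lower after Yap deletion (median −0.68), 8 of them at an unadjusted p under 0.05 (9.18% of all genes were lower at that p), among them Ebf1 (−1.93 ± 0.49 SE) and Higd1b (−2.24 ± 0.60 SE), which marks lung pericytes and lay at 1.20 to 2.81 CPM in Yap deleted libraries, against 14.5, 15.7, 2.97 and 2.25 CPM in controls. Without deleted controls 1 and 2, 13 of 20 were lower (median −0.08) and 0 at an unadjusted p under 0.05, against 3.71% of all genes, with Ebf1 at −0.67 and Higd1b at −0.51. In the Yap active line this list had a median of −0.39, and 0.25 with library set as a term. Of 11 further mesothelial genes 9 were lower in Yap active libraries (median −0.95), among them Igfbp6 (−0.53 ± 0.17 SE), while Dmkn, which other epithelia express too, was higher (1.39 ± 0.51 SE). With library set as a term 9 of 11 were again lower (median −0.31), with Igfbp6 at −0.47 and Dmkn at 0.84. In Yap deleted libraries 7 of these 11 mesothelial genes were lower (median −0.04), and 3 of 11 without deleted controls 1 and 2 (median 0.28).

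Genes that modify, carry or cut collagen had medians near 0. The 17 genes had a median log2 fold change of −0.04 in Yap active libraries and 0.12 in Yap deleted libraries. These medians were 0.03 with library set as a term and 0.16 without deleted controls 1 and 2. Bmp1, which encodes the protease that trims the end of fibrillar procollagen, lay at 335 to 1037 CPM in Yap active libraries and 338 to 525 CPM in their controls (0.85 ± 0.28 SE, adjusted p = 0.366 in edgeR's quasi-likelihood test), a change of 0.37 with library set as a term. In the other line it lay at 1414, 1035, 1047, 664 and 564 CPM in Yap deleted libraries, against 208, 461, 249 and 265 CPM in controls, with no overlap (1.67 ± 0.34 SE, unadjusted p = 0.000708, adjusted p = 0.247 in the same test), and a change of 1.85 without controls 1 and 2. Of the 8 transcription factor and cadherin genes tied to epithelial-mesenchymal transition, 8 were lower in Yap active libraries (median −1.13) and 7 in Yap deleted libraries (median −0.63). With library set as a term 5 of 8 were lower in Yap active libraries (median −0.05), and without deleted controls 1 and 2, 1 of 8 was lower in Yap deleted libraries (median 0.41). Zeb1, Zeb2, Snai1, Snai2, Twist1, Twist2, Prrx1 and Cdh2 are all expressed by fibroblasts, so this list and the mesenchymal one are not independent.

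Open chromatin near the 33 genes was read from the authors' region lists, in which each region is tied to the nearest gene, with a score whose scale is not stated. The lists come from 3 Yap active, 3 Yap active control, 2 Yap deleted and 1 Yap deleted control ATAC libraries, give no value per library and allow no test. Regions opened in Yap active cells were tied to 7 of the 33 genes (21.2%, against 19.3% of the genes in the count table), all mesenchymal, with 12 regions. The 2 closed regions were both in introns of Col5a1 (1 of 33 genes, 3.03%, against 4.98% of all genes). After Yap deletion 3 regions opened, at 3 of the 33 genes (9.09%, against 2.04% of all genes), and 3 closed, all tied to Wnt2 (1 of 33 genes, 3.03%, against 2.41% of all genes). No region in any of the 4 lists was tied to a mesothelial gene. The opened regions of the Yap deleted line lay at the promoters of Eln (chr5:134746864-134748426, mm10, score 54.2, place 13 of 532) and Col1a1 (chr11:94935641-94936891, score 29.6) and between genes near Col6a1 (chr10:76732818-76734151, score 42.6, place 48).

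Sequences are printed for 5 genes at which these lists or the motif search bear on the members. Each is the 250 bases before the first start listed for the gene, on its own strand (RefSeq, GRCm38.p6, the build called mm10). For Wnt2 and Lrrn4, both on the minus strand, that start is not the outermost. Their genes reach chr6:18032772 and chr2:132894010, so both windows lie inside the gene. Capitals mark the letters GGAATG, a core bound by the TEAD partners of Yap, TTGGCA, an arm of the nuclear factor I site, and GGGCGG, the GC box bound by SP and KLF factors, each searched on both strands. The start of Vim, on chromosome 2 (plus strand), lay in the region of highest score among the 12 opened in Yap active cells (chr2:13573119-13576387, score 156, place 447 of 6017), and all 250 bases shown (chr2:13574061-13574310) lie inside it.
Vim: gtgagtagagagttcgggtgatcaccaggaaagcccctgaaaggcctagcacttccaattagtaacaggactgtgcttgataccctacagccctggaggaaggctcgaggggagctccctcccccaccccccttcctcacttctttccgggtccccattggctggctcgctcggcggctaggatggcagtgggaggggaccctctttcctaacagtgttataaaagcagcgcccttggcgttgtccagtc
No motif was found in this window. The promoter of Col1a2 on chromosome 6 (plus strand, chr6:4505368-4505617) lay whole inside another region opened in Yap active cells (chr6:4504961-4505824, score 33.3), and holds TTGGCA 222 bases and GGGCGG 205 and 188 bases before the start, with no overlap between matches.
Col1a2: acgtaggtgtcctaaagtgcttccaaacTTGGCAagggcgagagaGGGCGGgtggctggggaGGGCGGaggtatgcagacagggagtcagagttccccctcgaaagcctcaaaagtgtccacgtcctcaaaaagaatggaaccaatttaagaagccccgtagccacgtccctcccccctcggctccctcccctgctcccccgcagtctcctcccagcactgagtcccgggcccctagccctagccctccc
For Wnt2 on chromosome 6 (minus strand, chr6:18030446-18030695), 237 of the 250 bases lie inside a region closed after Yap deletion (chr6:18030182-18030682, score 12.8, place 510 of 676), and CCGCCC, the GC box read on the other strand, lies 187 bases before the start.
Wnt2: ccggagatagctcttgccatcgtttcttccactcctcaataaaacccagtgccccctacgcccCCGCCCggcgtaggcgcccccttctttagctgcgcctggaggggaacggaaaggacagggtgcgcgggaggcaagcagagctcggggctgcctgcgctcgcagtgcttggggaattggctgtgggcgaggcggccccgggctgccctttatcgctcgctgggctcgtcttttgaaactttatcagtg
The mesothelial promoters of Lrrn4 on chromosome 2 (minus strand, chr2:132880863-132881112) and Upk3b on chromosome 5 (plus strand, chr5:136038246-136038495) are shown because they hold the TEAD letters, as GGAATG 196 bases and as CATTCC, its reverse complement, 241 bases before the start.
Lrrn4: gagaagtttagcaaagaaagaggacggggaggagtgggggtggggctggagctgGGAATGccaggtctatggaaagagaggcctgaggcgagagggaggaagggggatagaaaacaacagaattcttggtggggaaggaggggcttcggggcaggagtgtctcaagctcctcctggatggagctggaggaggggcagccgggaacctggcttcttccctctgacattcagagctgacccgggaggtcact
Upk3b: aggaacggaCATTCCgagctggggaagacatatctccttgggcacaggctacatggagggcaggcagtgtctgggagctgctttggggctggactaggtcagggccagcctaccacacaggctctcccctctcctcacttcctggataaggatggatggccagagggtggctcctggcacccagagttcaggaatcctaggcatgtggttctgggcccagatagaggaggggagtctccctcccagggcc
Of the 33 genes, 20 were matched to a promoter in that table. The TEAD letters occurred in 6 of these genes, namely Upk3b, Lrrn4 and Gpm6a of 5 mesothelial genes and Acta2, Col3a1 and Col6a2 of 15 mesenchymal genes. Counted by promoter, as some genes have more than 1, they occurred in 26.1% of the 23 member promoters and in 12.6% of all 32851 promoters. The nuclear factor I letters occurred in 3 of the 20 genes (13.0% of member promoters, 12.3% of all promoters) and the GC box in 8 (39.1% and 32.7%). A match describes the letters of the window and does not show binding.

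Wnt2 was the one member at which the lists of both lines met. An intergenic region 86.0 kb downstream of its start (chr6:17943638-17945308) opened in Yap active cells with a score of 59.7, place 2204 of 6017. The region closed after Yap deletion at chr6:17943547-17945084, 86.1 kb downstream with a score of 117 and place 12 of 676, overlapped it by 1447 bases. Such overlaps of at least 1 base numbered 54 in the whole lists, 0.897% of the opened and 7.99% of the closed regions. Regions opened in both lines numbered 40, 0.665% of those of Yap active and 7.52% of those of Yap deleted cells, and none of these was tied to a member. Wnt2 RNA did not pass the test in either line, at 0.990 to 10.7 CPM in Yap active libraries and 2.40 to 27.8 CPM in their controls, and at 4.20 to 71.6 CPM in Yap deleted libraries and 7.25 to 29.0 CPM in their controls. Eln and Col1a1, whose promoters opened after Yap deletion, had log2 fold changes of −0.36 ± 0.64 SE and 0.42 ± 0.35 SE in that line.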

How the data were processed

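The authors deposited 1 table of whole-number read counts per gene for each line, with 23478 gene rows. The counting program and annotation are not given in the sources used here, and the tools named per the submitters' processing notes (Trim Galore, Bowtie2, Cufflinks, DESeq, HOMER) carry no version or step. Their region lists hold a Peak Score and an annotation by HOMER on mm10, per the file headers, and scores served for ranks inside a single list. Peak lists were not used here. In these counts 27 gene names had become dates and 2 occur more than once, and 0 columns of sample values were left unused.

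Counts were scaled by TMM within each table, filtered with filterByExpr and tested in edgeR 4.0.16 (R 4.3.3) by robust quasi-likelihood fits (Benjamini-Hochberg over all genes tested, called under 0.05, two-sided). The pipeline was checked on simulated data. Alternatives were RLE scaling, library totals, no filter, DESeq2 1.42.0, limma 3.58.1 voom with sample weights, a replicate block (only numbers held by both groups), and leaving out libraries, and for regions a 50 kb limit or the higher-scoring 50% of regions. A term for library set, taken from the first principal component, and the further lists without deleted controls 1 and 2 were added after the data were seen.

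The members and lists were chosen with earlier results of these data known. All 33 members are named. Values per library are given for the member with the highest mean CPM of its role, for the smallest p of each list in each comparison, and for others chosen after their values were seen. From each other list up to 4 genes with the smallest p could be named. No p adjusted over a list is given. Libraries of a group all differed by more than sampling noise (chi-square per gene at least 50.6). Counting error and the number of libraries limit the precision.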

Additional observations from a re-analysis of the deposited data

Results flagged for a closer look

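A library was marked when Dixon's gap ratio set it apart from the rest of its group of 4 to 6 libraries. For normally distributed values chance does so in about 1 of 20 groups. That rate need not hold here, since CPM were used without logs and the groups share libraries. Of 140 groups tried (33 genes and 2 sums in 4 groups), 14 were marked, and all were at the high end. Active 1, the library with the fewest Esr1 reads of its group, accounted for 10. It held 389 CPM of Pdgfra where the other 5 Yap active libraries held 16.0 to 134, 99.1 of Dcn (others 7.97 to 28.5), 10.9 of Lum (others 1.22 to 3.64), 16039 of Eln (others 2439.7 to 6723) and 208 of Wnt5a (others 15.5 to 68.8). Among mesothelial genes it held 361 CPM of Msln (others 59.2 to 134), 16.4 of Wt1 (others 1.11 to 5.81), 23.3 of Bnc1 (others 2.10 to 7.19) and 116 of Gpm6a (others 14.2 to 31.8), and its mesothelial sum was 942 CPM (others 136 to 383). Deleted 5 was marked once, for Pdgfra at 544 CPM where the other 4 Yap deleted libraries held 46.7 to 179.6 CPM.

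Deleted control 2, which held Esr1 reads and the highest leukocyte sum, was marked 3 times and for mesothelial values alone. It held 18.3 CPM of Wt1 where the other 3 controls held 2.63 to 3.93, 13.8 of Bnc1 (others 5.35 to 6.35) and a mesothelial sum of 681 CPM (others 280.3 to 337). Without it the mesothelial median of the Yap deleted line was 0.27 in place of −0.16.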

How the results depend on the processing

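The count of genes called moved with the tool and the libraries kept. In the Yap active line it was 0 with edgeR, 18 with DESeq2 and 8871 with limma-voom, which alone called members (21 of 33), and 13 without active 1 and active control 2. In the Yap deleted line it was 1 with edgeR, 2 with library totals, 792 with DESeq2, 0 with limma-voom and 0 with the replicate block. For the difference between lines it was 0 with edgeR, 17 with DESeq2 and 21 with limma-voom. The cause was not tested. Same-numbered libraries did not all deviate together (correlation of deviations from group means 0.009 to 0.52 in the Yap active line and −0.25 to 0.44 in the other, with 3 of 8 and 5 of 8 libraries closest to their own number), and nothing in the labels pairs them. The replicate block could use only numbers held by both groups, so it left out active 5 and 6 and deleted 5. It called 0 members. With it 6 of 25 mesenchymal genes were higher after Yap deletion, against 12 in the main fit and 8 without deleted 5 alone and no block.

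Leaving out 1 library at a time gave 0 to 2 genes called in the Yap active line, 0 to 4 in the Yap deleted line and 0 to 3 for the difference, with 0 members called throughout. The mesenchymal median then ran from −0.998 to −0.36, from −0.40 to 0.23 and from −1.08 to −0.46 in the same order, and the mesothelial one from −1.68 to −1.07, from −0.39 to 0.27 and from −1.42 to −0.69. With library set as a term the medians of the Yap active line were 0.17 (mesenchymal) and −0.38 (mesothelial). Without active 1 and active control 2 they moved the other way, to −1.12 (24 of 25 lower) and −1.52 (8 of 8 lower), with 0 members called. In that fit 7 of 25 and 8 of 8 were lower at an unadjusted p under 0.05 in edgeR's quasi-likelihood test, against 15.7% of all genes. Without deleted controls 1 and 2 the mesenchymal medians were 0.68 after Yap deletion and −1.56 for the difference, and without active 1, active control 2 and deleted control 2 the mesothelial difference was −1.70. Counted as 1 value per gene and refit, mesothelial fold changes kept their sign in 144 of 144 values of the Yap active line. Mesenchymal ones changed it in 23 of 450 there. In the Yap deleted line mesothelial ones changed sign in 27 of 128 values and mesenchymal ones in 41 of 400. The refits share libraries and the genes of a list vary together, so these values are not independent. Library totals moved the median of all genes to −0.14 in the Yap active line. Among the higher-scoring regions opened in Yap active cells 2 members had one, against 7 in the whole list.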

Other observations

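Further ratios between members varied from library to library, given as values with no test. Pdgfrb over Pdgfra was 0.432, 1.27, 0.897, 3.54, 1.69 and 2.67 in Yap active libraries 1 to 6 and 0.406, 0.615, 0.540 and 0.600 in their controls. It was 1.29, 0.805, 0.752, 1.48 and 0.135 in Yap deleted libraries and 1.02, 0.722, 1.62 and 0.847 in their controls. In the Yap active line 5 of 6 libraries thus lay above every control, and active 1 lay among them. The values 3.54 and 2.67 belong to active 4 and 6, which had the 2 lowest mesenchymal sums of that table. Upk1b over Upk3b, a pair of uroplakin genes, was 0.245, 0.184, 0.320, 0.197, 0.226 and 0.345 in Yap active libraries and 0.293, 0.176, 0.141 and 0.191 in their controls, while it was 0.264, 0.437, 0.741, 0.203 and 0.659 in Yap deleted libraries and 0.934, 0.667, 0.319 and 0.329 in their controls. Eln supplied 39.9% to 55.8% of the summed mesenchymal CPM in Yap active libraries and 33.7% to 57.5% in their controls, and 19.7% to 46.1% in Yap deleted libraries and 21.9% to 44.5% in their controls.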
